A study of Mus musculus with 27 samples.

Results

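The genes of the T cell receptor complex were followed through stromal segments of mouse liver metastases grown from MC38 cells. The segments were collected as cancer-associated fibroblasts (CAFs). The 10 genes were taken by symbol from the 18855 targets listed in each region: Trac, Cd3d, Cd3e, Cd3g, Cd247, Cd8a, Cd4, Lck, Zap70 and Cd2, and all 10 were found. MC38, a mouse colorectal cancer cell line, was injected into the portal vein of C57BL/6 mice of 2 months of age, and the injected cells carried either NT shRNA (control) or CMTM6 shRNA (CMTM6 knockdown). Sections were stained with an antibody to desmin, a filament protein found in stellate cells and muscle-like cells, and the desmin-stained area of each region of interest (ROI) was profiled with the GeoMx Digital Spatial Profiler, which counts probe tags released from a chosen area of a section. There were 14 control ROIs and 13 CMTM6-knockdown ROIs, from 3 mice in each group. CMTM6 was silenced in the injected cancer cells only, so the fibroblasts and the T cells of both groups were host cells with an unaltered Cmtm6 gene. No label says which mouse a ROI came from. Some ROIs share an animal, and every p-value over ROIs below is too small for a comparison of animals.

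The T cell receptor recognizes a peptide held by a major histocompatibility molecule on another cell. Its antigen-binding chains have almost no cytoplasmic tail, so the signal is passed on by the CD3 chains and by the zeta chain, whose tails are phosphorylated by the kinase Lck and then bind the kinase Zap70. The co-receptors CD8 and CD4 bring Lck to the receptor, and CD2 is an adhesion molecule of T cells and natural killer (NK) cells. Fibroblasts and hepatocytes do not make this complex, and a desmin-stained area of tissue can hold T cells between or beside the stromal cells. In such a segment, more T cells and more RNA per T cell cannot be told apart. Cd247, Lck, Zap70 and Cd2 are also expressed by NK cells, and Cd4 by some other mouse leukocytes.

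Of the genes for the CD3 chains, Cd3g and Cd3d are close neighbours. They are transcribed away from each other, with starts 1354 bases apart on mouse chromosome 9 (RefSeq, GRCm38.p6). The 250 bases before each of these starts are shown because the pair sits at one locus, and its covariation in each group is described below. Both strands were searched for words of transcription factor families that act in T cells, and capitals mark a match. The RUNX family binds the word TGTGGT, which was found in 14.0% of 32851 promoters of this length. The ETS family binds CCGGAA, a word that 12.0% of these promoters held. The E-box proteins bind the palindrome CAGCTG, present in 13.0% of the same windows. The GATA family binds AGATAA, present in 9.99% of them.
Cd3g, chr9:44980432-44980681, minus strand: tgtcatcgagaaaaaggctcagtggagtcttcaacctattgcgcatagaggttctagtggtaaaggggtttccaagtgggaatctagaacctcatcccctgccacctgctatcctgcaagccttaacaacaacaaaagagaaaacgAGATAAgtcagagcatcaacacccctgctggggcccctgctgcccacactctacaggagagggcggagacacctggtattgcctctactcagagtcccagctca
Cd3d, chr9:44981536-44981785, plus strand: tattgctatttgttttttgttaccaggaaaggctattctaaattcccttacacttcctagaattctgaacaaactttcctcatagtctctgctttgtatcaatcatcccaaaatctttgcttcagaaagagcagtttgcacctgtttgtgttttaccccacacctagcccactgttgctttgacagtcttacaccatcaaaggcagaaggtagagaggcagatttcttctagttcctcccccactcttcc
The Cd3g window holds 1 GATA word and the Cd3d window holds none of the words searched. A word in a window is not a bound site, and a window without one says nothing of the factor. Promoters were found for 7 of the 10 genes.

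Each value is a signal on a scale set by 1 factor per ROI, and the reads behind it were recovered from the steps between values. Control ROIs held 659571 to 3269149 reads, and CMTM6-knockdown ROIs held 76346 to 2776820. ROI 26 of the knockdown group was the shallowest, with 1 read worth 14.1 units of signal. The 75th percentile of the deposited values was 70.3 to 72.6 over control ROIs and 43.9 to 56.4 over knockdown ROIs, and these ranges do not overlap. The normalization is not stated. Within a group the 75th percentile hardly moved, with an SD of 0.62 over control ROIs and 43.9 to 45.7 over knockdown ROIs without ROI 26. Each group was thus scaled to a level of its own. Whether the groups also differed in total signal cannot be read from these values. Each level below is therefore relative: log2(value + 1) minus the median of that quantity over all 18855 targets of the ROI, so that 0 is the median target. All 10 fibroblast and stellate cell markers were above background, with a mean relative level of 3.67 to 5.00 in control ROIs and 3.77 to 5.03 in knockdown ROIs, and Des itself, whose protein chose the area, lay at 0.61 to 1.84 in the control group and 0.00 to 1.96 in the knockdown group. The relative level of Cmtm6 was 0.91 to 1.91 in control ROIs (median 1.58) and 1.30 to 1.77 in knockdown ROIs (median 1.59), with a log2 fold change of 0.08 (SE 0.10, limma adjusted p = 0.810). These segments are not the silenced cells, so this value is no check of the knockdown.

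The genes of the complex were weakly represented in these segments. Background was read from 1100 targets of gene families picked by symbol as unlikely to be expressed here. These were olfactory, vomeronasal, taste and trace amine receptors, keratin-associated proteins, placental prolactins, and the Rhox and Defb families. The paper lists proliferin, of the prolactin family, among proteins released by MC38 cells. Some background targets may thus be expressed and raise the upper percentiles, which was not tested. Their median relative level was -1.02 and their 95th percentile was -0.50. The mean level over all ROIs of 8 of the 10 genes lay above that 95th percentile, as did 11183 of all 18855 targets. Passing this bar is therefore not particular to these genes. Among all targets they ranked from the 26.7th percentile (Zap70) to the 70.7th (Trac). Trac was the only one above the 99th percentile of the background (0.42), with a mean level of 0.97. Cd3e lay at 0.32, Cd247 at 0.11, Cd3g at 0.02, Lck at -0.03, Cd8a at -0.04, Cd2 at -0.15 and Cd3d at -0.28, all higher than at least 96.9% of the background targets. Cd4, at -0.62, and Zap70, at -0.85, did not pass, and Zap70 exceeded only 76.6% of the background targets. Probes differ in how well they bind, so these levels rank each gene against background and do not rank the genes against each other.

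The genes were also set against background within single ROIs. Trac exceeded the 95th percentile of the ROI's own background in 13 of 14 control ROIs and in 13 of 13 knockdown ROIs. Cd3e did so in 11 control and 12 knockdown ROIs, Cd247 in 8 and 11, Lck in 8 and 10, Cd3g in 8 and 9, Cd8a in 7 and 10, Cd2 in 5 and 8, and Cd3d in 4 and 7. Cd4 did so in 1 control ROI and 3 knockdown ROIs, and Zap70 in 0 and 1. The share of all targets above a ROI's own background was not counted, and that bar ran from -0.38 (ROI 2) to 0.15 (ROI 25). Such counts, here and below, can therefore not be read as a trait of these genes or as a difference between the groups. Each of these levels rested on few reads, with a median over control ROIs of 50 reads for Trac and 15 for Zap70. ROI 26 held 1 to 4 reads of each gene, and 6 of the 270 values of these genes were at 1 read, all of them in ROI 26. In that ROI the median was 2 reads, and 9240 targets were at 1 read with none lower. A value of 1 read may therefore be a floor that also stands for no read, which was not tested.

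**Figure D1:**
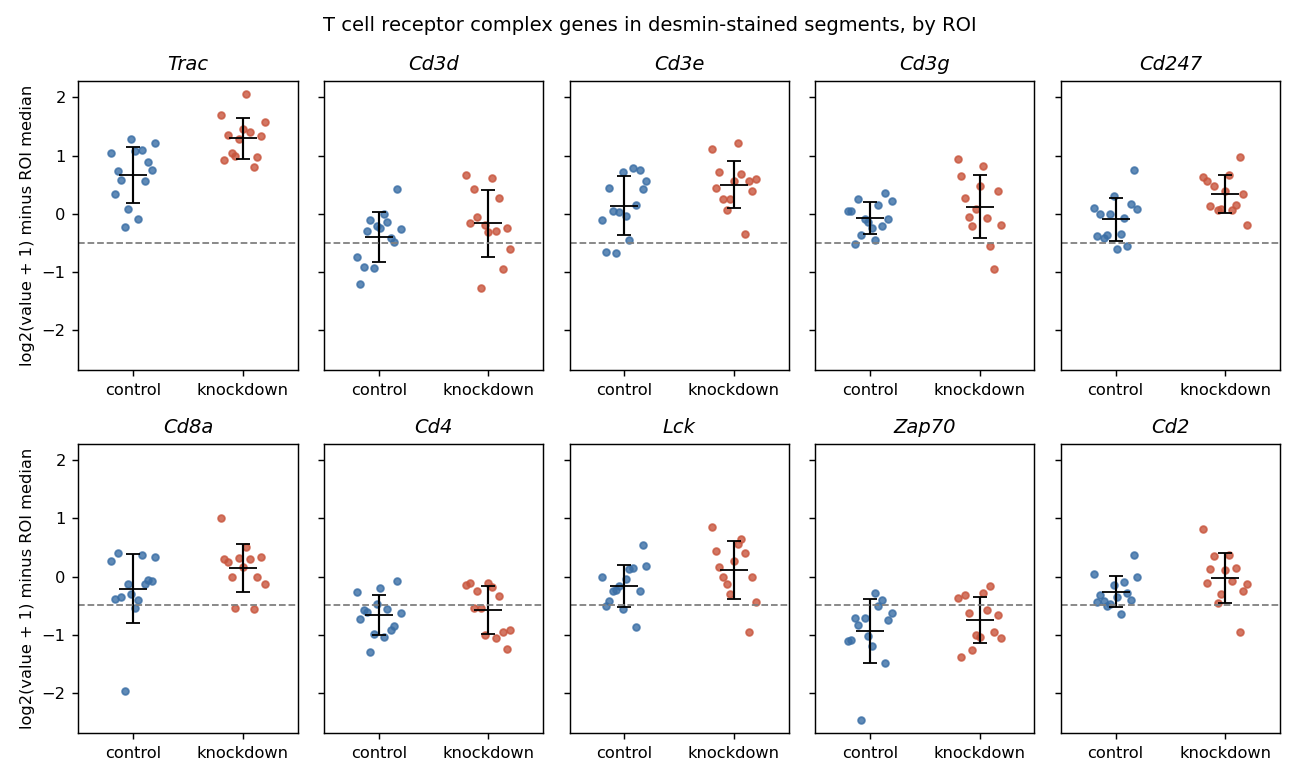
Relative level of each of the 10 genes, log2(value + 1) minus the ROI median, in 14 control and 13 CMTM6-knockdown ROIs. Each point is 1 ROI, the bars are the mean and SD over ROIs, and the dashed line is the 95th percentile of the mean levels of 1100 background targets (-0.50). Trac is the only gene whose points lie above the line in all 27 ROIs, and the points of Zap70 lie mostly below it.

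Trac, the chain that defines alpha-beta T cells, showed the widest separation between the groups. It also stood farthest above the background median, by 1.99, beside 0.17 (Zap70) to 1.34 (Cd3e) for the other genes. Background was not subtracted, so the sizes of the fold changes do not rank the genes by how much they changed. The signal values of Trac were 25.0 to 78.7 in control ROIs (median 50.6) and 35.6 to 88.4 in knockdown ROIs (median 47.0) as deposited. Relative to the ROI median, the control ROIs lay at -0.23 to 1.28 (median 0.74) and the knockdown ROIs at 0.80 to 2.06 (median 1.34). All 13 knockdown ROIs lay above the control median and 8 of them above the highest control ROI, while 8 of 14 control ROIs lay below the lowest knockdown ROI. The lowest control values were those of ROI 5 and ROI 9, and the highest knockdown values those of ROI 23 and ROI 16. The mean was 0.67 ± 0.49 (SD, n = 14) in control and 1.30 ± 0.35 (SD, n = 13) in knockdown ROIs, a log2 fold change of 0.63 (SE 0.15).

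This difference of Trac did not pass the test fitted across all targets, with an unadjusted p of 0.000150 and an adjusted p of 0.0682 (limma with trend, two-sided, Benjamini-Hochberg over 18855 targets). The call depended on the fit. Without ROI 26, the log2 fold change was 0.66 with an adjusted p of 0.0323, in a fit that called 0.26% of the sheet higher. Without ROI 7 the adjusted p was 0.0462, and without ROI 25 it was 0.0455. edgeR on the recovered reads gave a log2 fold change of 0.69 with an adjusted p of 0.00737 and called 0.594% of all targets higher. Over 12 alternatives of pseudocount, centring, filter, tool and ROIs left out, the adjusted p ran from 0.00389 to 0.254 and was under 0.05 in 6, of which 3 left out ROI 26. These 12 do not include the values as deposited, for which the adjusted p was 0.853.

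None of the 3 CD3 chains, which pair with each other and carry signalling motifs of the receptor, passed the test. Cd3e, which pairs with both other CD3 chains, lay at -0.67 to 0.79 in control ROIs (median 0.10) and at -0.34 to 1.21 in knockdown ROIs (median 0.56). The groups overlapped over most of this range, with 2 knockdown ROIs above the highest control ROI. The log2 fold change of Cd3e was 0.36 (SE 0.16, unadjusted p = 0.0313, limma adjusted p = 0.463). Cd3g lay at -0.52 to 0.36 in control ROIs (median -0.09) and at -0.95 to 0.94 in knockdown ROIs (median 0.09), where ROI 26, at 1 read, was the lowest. Its log2 fold change was 0.20 (SE 0.15, limma adjusted p = 0.683), and 0.13 without ROI 16. Cd3d lay at -1.20 to 0.43 in control ROIs (median -0.28) and at -1.27 to 0.67 in knockdown ROIs (median -0.19), so that nearly the whole range was shared. Its log2 fold change was 0.23 (SE 0.18, limma adjusted p = 0.683).

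Cd247 encodes the zeta chain, the longest signalling tail of the complex. Its signal values were 18.9 to 63.7 in control ROIs and 15.7 to 56.4 in knockdown ROIs. Relative to the ROI median it lay at -0.61 to 0.75 in control (median -0.03) and at -0.20 to 0.98 in knockdown ROIs (median 0.34). The highest value of each group belonged to the ROI that stood apart in it, ROI 14 in control and ROI 26, with 4 reads of Cd247, in knockdown. In knockdown, 12 of 13 ROIs lay above the control median. The log2 fold change of 0.43 (SE 0.13) had an unadjusted p of 0.00261 and a limma adjusted p of 0.250. It was 0.38 without ROI 26 (adjusted p = 0.276), and among the 12 alternatives only limma with array weights, which gives less weight to noisy ROIs and called 0.461% of the sheet higher, called it (adjusted p = 0.0365).

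The co-receptors differed in how far they stood from background. Cd8a, a chain of the CD8 co-receptor of cytotoxic T cells, lay at -1.97 to 0.41 in control ROIs (median -0.13) and at -0.55 to 1.00 in knockdown ROIs (median 0.25). The lowest control value was that of ROI 5, with 3 reads, and 11 of 13 knockdown ROIs lay above the control median. Its log2 fold change was 0.36 (SE 0.18, unadjusted p = 0.0479, limma adjusted p = 0.499), and 0.23 without ROI 5. Cd4, the co-receptor of helper and regulatory T cells, lay at -1.30 to -0.09 in control ROIs (median -0.62) and at -1.24 to -0.12 in knockdown ROIs (median -0.53). No knockdown ROI exceeded the highest control ROI, and the log2 fold change was 0.09 (SE 0.15, limma adjusted p = 0.870). The log2 fold change of Cd4 was 0.04 without ROI 5. The spread of Cd4 among control ROIs (SD 0.34) was close to the SD of 0.36 that counting of its reads alone would give.

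The log2 ratio of Cd8a to Cd4 within a ROI needs no centring and depends on the scale of the ROI only through the pseudocount of 1. As Cd4 lay within the background in most ROIs, this ratio sets Cd8a largely against background signal. It was 0.45 ± 0.51 (SD, n = 14) in control and 0.72 ± 0.55 (SD, n = 13) in knockdown ROIs. The difference of 0.28 (SE 0.21) had a p of 0.189 by a two-sided permutation test over ROIs, or 0.568 adjusted over the 3 ratios tested, and was 0.19 with a pseudocount of 5. The ratio of Cd3e to Ptprc, the phosphatase CD45 that all leukocytes carry, differed by -0.13 (SE 0.18, permutation p = 0.493, adjusted p = 0.668). The ratio of Cd3e to Csf1r, the growth factor receptor of macrophages, differed by 0.09 (SE 0.20, permutation p = 0.668, adjusted p = 0.668). Ptprc itself had a log2 fold change of 0.49 (SE 0.15, limma adjusted p = 0.230).

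Lck, the kinase that phosphorylates the CD3 and zeta chains, lay at -0.86 to 0.54 in control ROIs (median -0.20) and at -0.95 to 0.86 in knockdown ROIs (median 0.16). The groups overlapped widely, with 3 knockdown ROIs above the highest control ROI. Its log2 fold change was 0.28 (SE 0.15, limma adjusted p = 0.563), and 0.37 without ROI 26 (adjusted p = 0.373). Zap70, the kinase recruited to the phosphorylated chains, lay at -2.46 to -0.29 in control ROIs (median -0.78) and at -1.38 to -0.16 in knockdown ROIs (median -0.66). The lowest value was again that of ROI 5, with 2 reads, and the log2 fold change was 0.19 (SE 0.17, limma adjusted p = 0.736), or 0.08 without ROI 5. As Zap70 lay within the background in both groups, this value cannot be read as a transcript level. Cd2, the adhesion molecule, lay at -0.65 to 0.36 in control ROIs (median -0.33) and at -0.95 to 0.82 in knockdown ROIs (median -0.07). In knockdown, 11 of 13 ROIs lay above the control median, and the log2 fold change was 0.24 (SE 0.14, limma adjusted p = 0.589).

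Over the complex, 0 of 10 genes passed the limma test (adjusted p under 0.05), in a comparison that called 0.117% of all targets. At an unadjusted p under 0.05, 4 of the 10 were higher in knockdown ROIs (Trac, Cd3e, Cd247 and Cd8a) and 0 were lower, where 3.16% of the sheet was higher. edgeR on the recovered reads called 1 of 10 (Trac), and so did DESeq2 (Trac, adjusted p = 0.00389), which called 0.853% of the targets it tested higher. At an unadjusted p under 0.05, edgeR had 8 of 10 higher, all but Cd4 and Zap70, where 5.61% of the sheet was higher. The log2 fold changes of all 10 genes were above 0 relative to the ROI median, beside 37.3% of the sheet and 29.5% of the 11183 targets above background. The median over the 10 genes was 0.26, beside -0.05 over the sheet and -0.08 over targets above background. The background targets had a median of 0.01.

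**Figure D2:**
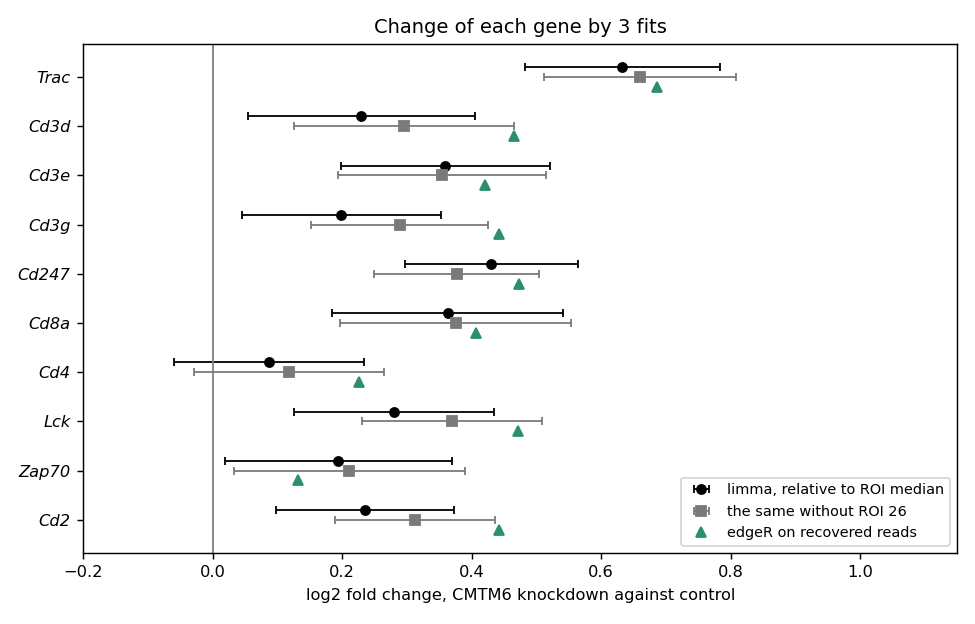
Log2 fold change of each gene, CMTM6 knockdown against control, by limma relative to the ROI median (circles), the same fit without ROI 26 (squares) and edgeR on recovered reads (triangles). Bars are the SE of the limma fits. All points lie above 0 in these 3 fits, from 0.09 (Cd4, limma) to 0.69 (Trac, edgeR), while on the values as deposited the sign is negative for all but Trac.

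These directions were relative to the other targets of the same ROI. The deposited values put each group on its own scale, so a fold change on them includes that difference in scale. On the values as deposited, the median log2 fold change over the sheet was -0.66, 94% of all targets were called lower, and the genes of the complex followed. Trac was then at 0.03 (adjusted p = 0.853). The other 9 genes had negative log2 fold changes, from -0.17 (Cd247) to -0.52 (Cd4), and 4 of them were called lower: Cd3g at -0.40, Cd4 at -0.52, Zap70 at -0.41 and Cd2 at -0.37. Centred on the 75th percentile of each ROI or on its background targets, all 10 genes stayed above 0.

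The other genes of T cell receptor signalling were taken from a list of 43, of which 38 were measured. Of these, 25 lay above background, beside 11183 of all 18855 targets. By limma, 0 of the 38 were called. Without adjustment, p was under 0.05 for 7 that were higher and 0 that were lower, and edgeR called 1 and DESeq2 2. Over all targets, as above, limma called 0.117% and had 3.16% higher without adjustment, edgeR called 0.594% higher and DESeq2 0.853%, and the counts of the lists that follow are to be read against these shares. The median log2 fold change of the list was 0.13, below that of the complex. Ptpn22, the phosphatase that reverses the phosphorylation by Lck, had a log2 fold change of 0.47 (SE 0.13, limma adjusted p = 0.169) and was the gene called by edgeR (adjusted p = 0.0199). Nfatc2, a transcription factor activated by calcium after receptor engagement, was at 0.42 (adjusted p = 0.241), and Lcp2, the adaptor phosphorylated by Zap70, was at 0.35 (adjusted p = 0.241). Of 23 measured genes of T cell states and checkpoints, limma called 0 and had 3 higher at an unadjusted p under 0.05, and edgeR and DESeq2 also called 0. Pdcd1, the inhibitory receptor PD-1, was at 0.43 (SE 0.15, limma adjusted p = 0.348), Ctla4, the inhibitory receptor of activated and regulatory T cells, at 0.31 (adjusted p = 0.504), and Cxcr6, a chemokine receptor of tissue T cells, at 0.31 (adjusted p = 0.531), the last 2 within the background.

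Markers of other cells were read from the same comparison. Of 11 genes of cytotoxic and NK cells, 10 had log2 fold changes above 0, with a median of 0.38. Nkg7, a granule protein of NK cells and cytotoxic T cells, was called higher, at 0.71 (SE 0.12, limma adjusted p = 0.00411), and 5 of the 11 were higher at an unadjusted p under 0.05. Limma, edgeR and DESeq2 each called 1 of the 11. All 7 genes shared by leukocytes were above 0, with a median of 0.48, and Coro1a, an actin-binding protein of leukocytes, was called higher at 0.62 (SE 0.11, limma adjusted p = 0.00411). Limma called 1 of these 7, and edgeR and DESeq2 each called 5. Of 13 macrophage genes, 11 were above 0 (median 0.20). Limma called 0 of them and had 6 higher at an unadjusted p under 0.05, and edgeR and DESeq2 each called 1. Of 8 dendritic cell genes 5 were above 0 (median 0.09), of 10 B and plasma cell genes 6 (median 0.04), and of 6 epithelial genes for the MC38 cells 1 (median -0.15). Only 3 of the dendritic, 3 of the B and plasma and 2 of the epithelial genes lay above background. The medians over these were 0.22, -0.25 and -0.16. In these 3 lists limma, edgeR and DESeq2 called 0, and at an unadjusted limma p under 0.05 there was 1 dendritic gene and none of the others. Of 10 fibroblast and stellate cell genes, 7 were above 0, with a median of 0.08. Limma and edgeR called 0 and DESeq2 called 1 of them, and 1 was higher at an unadjusted limma p under 0.05.

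Hepatocyte genes had the highest median of the lists. All 11 measured were above 0, with a median log2 fold change of 0.99, and 3 were called higher: Fga, a fibrinogen chain, at 1.39 (adjusted p = 0.0113), Cyp2e1, a cytochrome P450, at 1.14 (adjusted p = 0.0128) and Apoa1, an apolipoprotein of high-density particles, at 1.49 (adjusted p = 0.0409). edgeR, DESeq2 and limma with array weights each called 7 of the 11, limma without ROI 26 called 6, and Student's test across all targets called 0. On the deposited scales, control ROIs summed to 174.2 to 628 for these 11 genes and knockdown ROIs to 173.5 to 913, and the mean relative level was -0.98 to 0.58 and -0.85 to 1.59. For the 11 cytotoxic and NK genes, control ROIs summed to 175.5 to 514 and knockdown ROIs to 140.9 to 489, with a mean relative level of -0.92 to 0.05 and -0.59 to 0.66. For the 7 leukocyte genes the mean relative level was 1.41 to 2.45 and 1.52 to 2.85. No value of the sheet was 0. The part of these other cells, or of the size and place of the stained areas, in the levels of the 10 genes was not tested.

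The 10 genes varied from ROI to ROI by more than the difference between the group medians. Their mean relative level was -0.82 to 0.23 over control ROIs (median -0.21) and -0.33 to 0.72 over knockdown ROIs (median 0.10). ROI 5 was the lowest control ROI, with 0 of the 10 genes above its own background, and ROI 14, ROI 10 and ROI 15 were the highest. Among knockdown ROIs, ROI 16 (0.72, 9 genes above background) and ROI 23 (0.64, 8 genes) stood above the rest, and ROI 20 (-0.33) and ROI 26 (-0.32) were the lowest. ROI 16 was the highest of its group for 5 genes, Cd3d, Cd3g, Cd8a, Lck and Cd2. The mean level went with the log reads of the ROI with r = 0.14 over control ROIs and r = 0.53 over knockdown ROIs, or 0.38 without ROI 26, so that depth moved with it in the knockdown group.

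**Figure D3:**
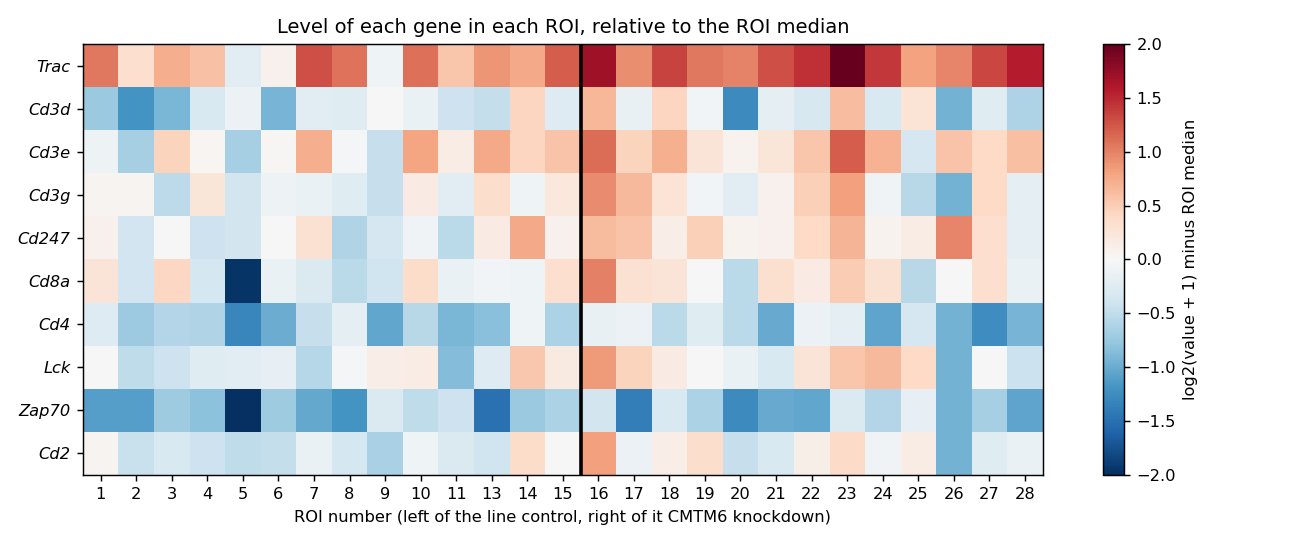
Relative level, log2(value + 1) minus the ROI median, of each gene (rows) in each ROI (columns, 14 control ROIs left of the line and 13 knockdown ROIs right of it). The colour scale ends at -2.0 and 2.0. ROI 16 and ROI 23 are the reddest columns, and ROI 5 holds the bluest cells (Cd8a at -1.97 and Zap70 at -2.46). In ROI 26 the 6 genes at 1 read, which may be a floor, share one colour (-0.95).

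The 10 genes were compared pair by pair across the ROIs of each group. They need not come from the same cells. Cd8a and Cd4 are co-receptors of different T cells, and several of the genes are also expressed by other leukocytes. A median over all pairs therefore does not describe 1 cell type. The correlations are given as a description, since ROIs share animals and each ROI's centring is common to all genes. Over the 45 pairs the median Pearson r was 0.37 in control ROIs (n = 14), from -0.22 to 0.76, with 43 pairs above 0. In knockdown ROIs (n = 13) the median was 0.46, from 0.01 to 0.84, with 45 pairs above 0. The same genes paired with background targets gave a median r of 0.11 in control and 0.04 in knockdown ROIs, and paired with other targets above background -0.14 and 0.01. The medians by Spearman's rho were 0.28 and 0.43.

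Trac and Cd3e had the highest Pearson r over all ROIs in both groups, 0.76 in control, barely above Trac and Cd4, and 0.84 in knockdown ROIs. By Spearman's rho other pairs came first, Cd4 and Cd2 in control (0.77) and Cd3d and Cd2 in knockdown (0.84). Cd8a went with Cd3e at r = 0.65 in control and 0.81 in knockdown ROIs. Trac went with Cd4 at r = 0.75 in control and 0.06 in knockdown ROIs, and with Cd8a at 0.63 and 0.65. Cd4 lay within the background in most ROIs, and its SD was below that expected from counting in both groups. The pairs with Cd4 can therefore not be read as a trait of T cells that carry it. Cd3d and Cd3g, the divergently transcribed neighbours shown above, gave r = -0.05 in control and r = 0.62 in knockdown ROIs. Without ROI 16 and ROI 23, r in knockdown was 0.38. In control ROIs the SD of Cd3g (0.27) was below the 0.29 expected from counting, and both genes were at 1 read in ROI 26 of the knockdown group. The r values of this pair can therefore not be read as a trait of the locus. Cd3d and Cd2 gave 0.37 and 0.83. Cd247 had a median r to the other genes of 0.16 in knockdown and 0.39 in control ROIs. Its median Spearman's rho was 0.34 in knockdown and 0.31 in control ROIs. The highest knockdown value of Cd247 was that of ROI 26, where 6 other genes were at 1 read. The differences between the groups in these r values were not tested.

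**Figure D4:**
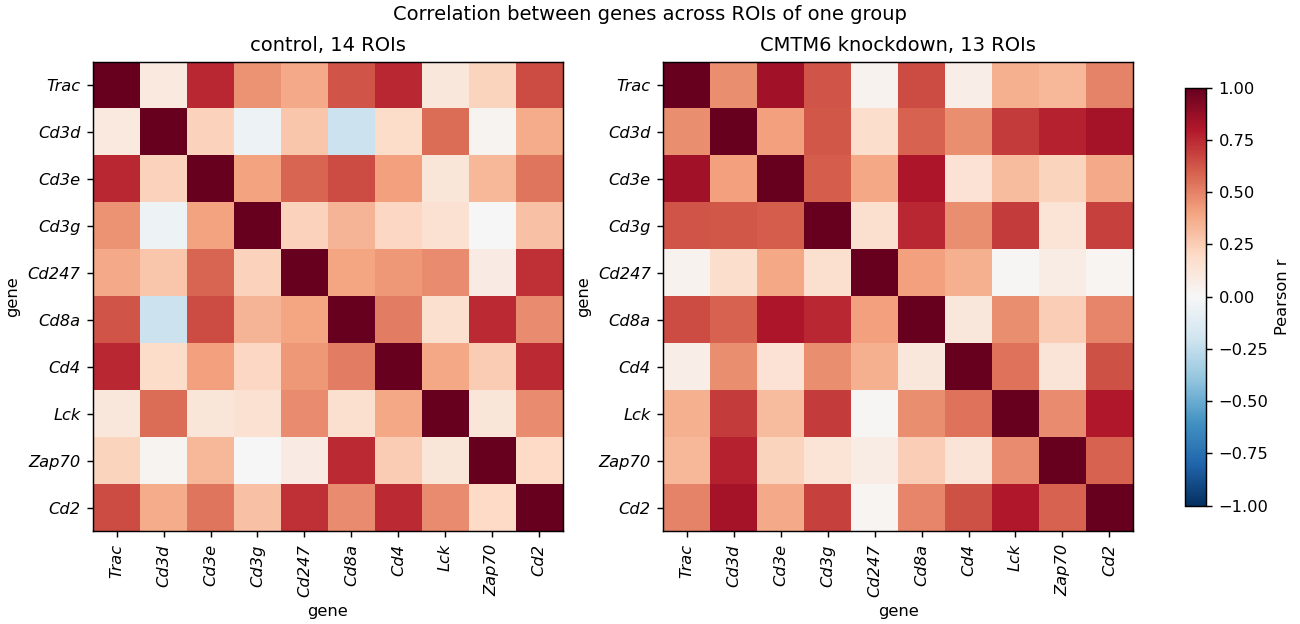
Pearson r between each pair of the 10 genes across 14 control ROIs (left) and 13 CMTM6-knockdown ROIs (right), on relative levels. Red is positive and blue negative, and the diagonal is 1 by definition. The Trac and Cd3e cells are dark in both maps (0.76 and 0.84), Cd3d is pale or blue with most genes in control and red with most in knockdown, and the Cd247 row is mostly pale in knockdown.

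Leaving out the ROIs at the extremes of the mean level narrows the range and so lowers r by construction. Without ROI 5 and ROI 14, the 2 control ROIs farthest from the median of the members' mean level, the median r over pairs was 0.20, with 37 of 45 pairs above 0. Without ROI 16 and ROI 23 the knockdown median was 0.16, with 27 pairs above 0, and it was 0.52 without ROI 26. Counting error also limits r. In knockdown ROIs the SD of Cd247 over ROIs (0.32) was below the 0.35 expected from its reads alone. Cd8a, Cd4, Lck, Zap70 and Cd2 were also at or below the SD expected from counting in that group, where the few reads of ROI 26 raise it. The same held for Cd3g, Cd4 and Cd2 in control ROIs. Trac (SD 0.49, 0.23 from counting) and Cd3e (SD 0.50, 0.28 from counting) varied well beyond it in control ROIs.

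**Figure D5:**
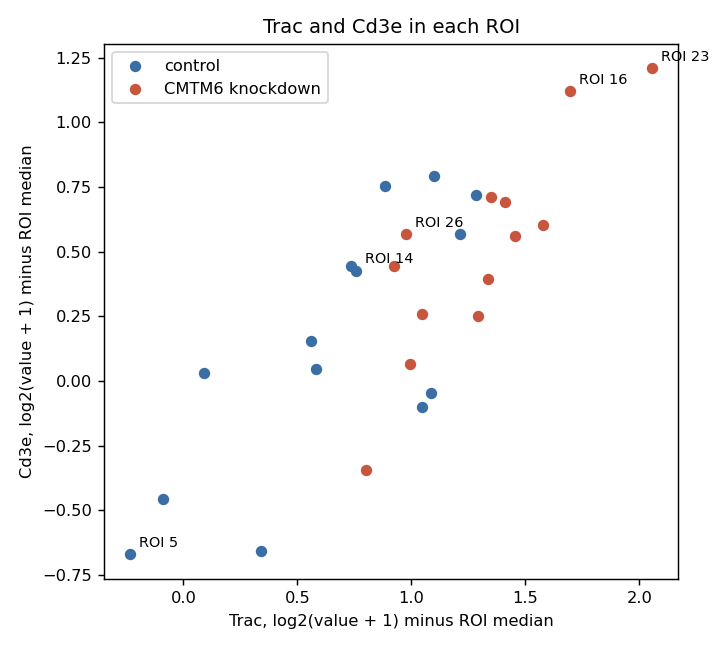
Relative levels of Trac (x axis) and Cd3e (y axis), each log2(value + 1) minus the ROI median, with 1 point per ROI and the ROIs that stand apart named. The points of both groups run along one band, with r = 0.76 over 14 control and r = 0.84 over 13 knockdown ROIs, from ROI 5 at the lower left to ROI 23 at the upper right.

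Among 11175 other targets above background, those most like the mean of the 10 genes (Pearson r of deviations from the group means, 27 ROIs) included several genes of lymphocytes. The median r of these targets was -0.05 and their 99th percentile 0.52. Gm40892, for which no role is given here, came first at r = 0.81. Cd96, an adhesion receptor of T and NK cells, followed at 0.78, and Cd27, a costimulatory receptor, at 0.76. Cbfa2t3, a transcriptional corepressor, was also at 0.76. Lag3, an inhibitory receptor of activated T cells, was at 0.74, and Trbc1, the constant region of the receptor's beta chain, at 0.72. Trbc1 is nearly identical to a second beta constant gene, so its probe may read both.

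The list went on with Cblb, a ubiquitin ligase that restrains T cell activation, at 0.72, Cyfip2, a regulator of actin, at 0.72, Ptpn22 at 0.71 and Nkg7 at 0.70. As these 10 targets were picked for a high r, they cannot show whether likeness across ROIs goes with change between groups. Among them limma called only Nkg7 between the groups, and edgeR and DESeq2 called Nkg7 and Ptpn22. Trbc1 was at a log2 fold change of 0.45 (SE 0.18, limma adjusted p = 0.408). Gm40892, Cd96 and Cblb lay below 0, at -0.02, -0.06 and -0.15, and the others above 0, beside 29.5% of all targets above background. Measured by whole lists, the mean of the signalling genes followed the mean of the 10 genes at r = 0.78, T cell states at 0.70, B and plasma cells at 0.66 and cytotoxic and NK cells at 0.62. Dendritic cells and genes of all leukocytes were at 0.48, hepatocytes at 0.36, the MC38 epithelial genes at 0.16, macrophages at 0.14 and fibroblasts and stellate cells at -0.06. Several of these lists rest largely on background targets. Above background lay 11 of 23 T cell state genes, 3 of 10 B and plasma, 3 of 8 dendritic and 2 of 6 epithelial genes.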

How the data were processed

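In the study, GeoMx probe tags from desmin-stained segments were sequenced, counted and analysed in the GeoMx software. The authors deposited signal values of 18855 targets in 27 ROIs; the sources used here give neither the normalization nor a genome build. Between 99.8% and 99.99% of the values of each ROI were whole multiples of 1 step within 0.001 reads, which gave the reads. Counting error covers reads only, since duplicates are unknown. Labels gave the groups.

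Relative levels were log2(value + 1) minus the ROI median. Groups were compared by limma 3.58.1 (trend, two-sided, adjusted p under 0.05 over all targets) in R 4.3.3, and ratios by permutation tests with 100000 resamples in SciPy 1.17.1. edgeR 4.0.16 (TMM, quasi-likelihood) and DESeq2 1.42.0 were run on the recovered reads, and Student's test as in the study's methods. Other alternatives were pseudocounts of 0.1 and 5, other centring, a background filter, array weights and ROIs left out. Leaving out ROI 14 with ROI 26, and ROI 26 in edgeR, was added after the data were seen. The main limma fit, edgeR and Student's test were tried on simulated reads, and DESeq2 and array weights were not. The simulated ROIs were drawn independently, so ROIs that share an animal were not covered.

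Named were the 10 genes, the 10 targets most like their mean, up to 4 genes per list with the smallest p, Ptprc, Csf1r and Des. One gene under this rule is not reported here. Cmtm6 was added as the silenced gene. The genes and lists were chosen with earlier results of these data known.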

Additional observations from a re-analysis of the deposited data

How the results depend on the processing

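Relative to the ROI median, 0 of the 10 genes were called. The count was 1 by edgeR, by DESeq2, without ROI 26, by edgeR without ROI 26 and without ROI 14 and ROI 26 together, 2 with array weights, 4 (all lower) on the values as deposited, and 0 to 1 when single ROIs were left out (1 without ROI 7, ROI 25 or ROI 26). Of the 38 signalling genes, 0 were called. That count was 1 with array weights, by edgeR and by edgeR without ROI 26, 2 by DESeq2, 28 as deposited, and 0 to 1 when single ROIs were left out (1 without ROI 20). As deposited, the log2 fold changes were negative for Cd3d (-0.37), Cd3e (-0.24), Cd3g (-0.40), Cd247 (-0.17), Cd8a (-0.24), Cd4 (-0.52), Lck (-0.32), Zap70 (-0.41) and Cd2 (-0.37), where the median over the sheet was -0.66. Over the sheet, limma called 21 targets higher and 1 lower. These counts were 33 and 25 with a pseudocount of 5, 3 and 0 by Student's test, 87 and 51 with array weights, 112 and 16 by edgeR, 114 and 19 by DESeq2, 49 and 7 without ROI 26, and 47 and 25 without ROI 14 and ROI 26. The cause was not tested. Of the 10 genes, 8 lay above the 95th percentile of the background, as did 11183 of all 18855 targets, and 1 above its 99th. The median r in knockdown ROIs was 0.16 without ROI 16 and ROI 23. No paired analysis was possible because the ROI numbers are not shared between the groups. With 76346 reads, ROI 26 cannot resolve differences in any of the 10 genes.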
